A study of Mus musculus with 28 samples.

Results

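The genes described here are those named for the proteins of the cytosolic ribosome, in liver tumors and in non-tumor liver of mice. A gene was a member when its symbol was Rpl or Rps followed by a digit, or was Rplp0, Rplp1, Rplp2 or Rpsa. The S6 kinases (Rps6k), Rps19bp genes and symbols marked as pseudogenes were left out. The rule found 89 genes among the 22187 of the table, and 82 of them reached 1 CPM (a count scaled to the depth of its library) in at least 3 of the 28 libraries. Of these, 49 are named for the large subunit and 33 for the small subunit. GENCODE vM21 annotates 79 of the 82 as protein-coding, Rpl6l and Rps3a2 as processed pseudogenes and Rps4l as a transcribed processed pseudogene. The 7 genes below the filter were Rpl10l, Rpl39l, Rpl3l, Rps12l1, Rps27, Rps29 and Rps3a3.

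The ribosome is built from ribosomal RNA and a large set of proteins, most of them encoded by single genes whose products are needed in equal numbers. The large subunit joins amino acids and carries a stalk of acidic proteins (Rplp0, Rplp1 and Rplp2) that recruits elongation factors, and the small subunit decodes the mRNA. Many mRNAs of ribosomal proteins start with a cytosine followed by a run of pyrimidines, the 5′ terminal oligopyrimidine (TOP) tract, through which mTOR and LARP1 control their translation. A few members have paralogs (Rpl22l1 of Rpl22, Rps27l of Rps27), and several proteins, Rpl5 and Rpl11 among them, bind Mdm2 and so link ribosome assembly to p53.

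All mice were C57BL/6 and received diethylnitrosamine (DEN), a liver carcinogen, at 25 mg/kg by intraperitoneal injection at 2 weeks of age, controls included. They were then given alcohol (labelled HFD_alcohol, and described in the design as an isocaloric ethanol liquid diet) or chow for 18 weeks. The mice labelled AlbCre_IL17RA_floxflox, here dHEP, carry floxed Il17ra and a Cre driven by the albumin promoter, which is active in hepatocytes, so that other liver cells keep the receptor gene. Those labelled IL17RA_floxflox, here FF, carry the same floxed alleles without the Cre label. Tumor and non-tumor liver of each genotype and diet gave 4 libraries each on alcohol and 3 each on chow. Numbers in the labels were taken as animal numbers. In 3 of the 4 genotype and diet groups the tumor and non-tumor libraries bear the same animal numbers, giving 11 animals with both tissues. In FF mice on chow the numbers differ between the tissues. The 2 diets also have separate ranges of animal numbers, so diet and cohort cannot be told apart.

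The smallest steps of the CPM values put the libraries at about 9572000 to 17820000 counted reads. No 2 libraries held identical values. Il17ra stood at 8.34 to 13.0 CPM in the 7 dHEP non-tumor libraries and at 14.7 to 31.0 CPM in the 7 FF ones, without overlap. In tumors the ranges overlapped, 8.38 to 29.4 CPM in dHEP and 20.8 to 33.9 CPM in FF. The fetal liver gene Afp, a marker of liver tumors, was above 100 CPM in 2 non-tumor libraries of FF mice on alcohol, FF-523 (212.7 CPM) and FF-581 (159.2 CPM), and was at 5.47 CPM in 1 tumor library, dHEP-549. The summed share, the counts of called members and the counts over animals and libraries are given with and without these 3 libraries. They were chosen on Afp alone. FF-523 and FF-581 also had the highest sums of tumor markers among the non-tumor libraries, at 599.9 and 303.5 CPM. Their sums of proliferation genes, 101.3 and 81.2 CPM, were the highest there too. The sum of tumor markers was 225.5 CPM in the tumor of dHEP-549. It was 223.2 CPM in the tumor of dHEP-550 and 118.5 CPM in that of dHEP-165, and both of these tumors were kept.

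Of the 82 members, 60 had a transcription start in the RefSeq promoter table (build GRCm38.p6). A C at an annotated start followed by at least 4 bases that were all C or T, read on the coding strand, was present in 13 of the 60 (21.7%), against 813 of 27025 genes of that table (3.01%). With the C allowed within 5 bases of the annotated start the counts were 29 of 60 (48.3%) and 5718 of 27025 (21.2%). The following windows hold 15 bases before the start and 15 from it, 5′ to 3′ on the coding strand, with the tract in capitals. Rpl38, Rpl35 and Rps15a are shown because they are among the members that rose the most, Rpl15 because it had the lowest p in a diet comparison, Rpl28 and Rps6 because they carry the tract and passed the test in no tissue comparison, and Rpl22l1 because it had the largest called rise in both alcohol comparisons.
Rpl38: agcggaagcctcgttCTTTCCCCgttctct
Rpl35: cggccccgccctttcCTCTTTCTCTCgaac
Rps15a: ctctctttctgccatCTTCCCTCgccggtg
Rpl15: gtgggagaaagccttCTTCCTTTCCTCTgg
Rpl28: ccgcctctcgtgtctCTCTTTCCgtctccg
Rps6: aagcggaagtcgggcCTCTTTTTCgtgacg
Rpl22l1: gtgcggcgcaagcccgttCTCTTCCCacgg
They lie at chr11:114668565-114668594 (Rpl38, plus strand), chr2:39005117-39005146 (Rpl35, minus), chr7:118116133-118116162 (Rps15a, minus), chr14:18270972-18271001 (Rpl15, minus), chr7:4792950-4792979 (Rpl28, plus), chr4:86857353-86857382 (Rps6, minus) and chr3:28805493-28805522 (Rpl22l1, plus). In Rpl22l1 the tract lies 3 bases after the annotated start, and in the other 6 it lies at the start itself. A match describes these letters only.

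Ribosomal protein transcripts made up a larger share of the library in tumors than in non-tumor liver. Summed over the 82 members they were 1.02 to 1.54% of all CPM in the 14 tumor libraries (median 1.18%) and 0.626 to 0.980% in the 14 non-tumor libraries (median 0.846%), so the 2 tissues did not overlap. The sum was higher in the tumor of each of the 11 animals with both tissues, by a ratio of 1.09 to 1.87 (median 1.46). The ratio was lowest in dHEP-164 on chow, where the sum went from 9368 to 10200 CPM, and highest in FF-503 on alcohol, where it went from 6533 to 12191 CPM. Without the 3 libraries that stood apart, the sum was still 1.02 to 1.54% in 13 tumor and 0.626 to 0.980% in 12 non-tumor libraries, and the ratio was 1.09 to 1.87 over the 8 animals left. In bulk tissue, a different mix of cells and a different level per cell cannot be told apart.

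The rise was seen in both subunits. The large subunit sum was higher in tumors by a ratio of 1.11 to 1.86 over the 11 animals (median 1.5004) and the small subunit sum by 1.06 to 1.87 (median 1.42). The ratio of summed large to summed small subunit CPM was 1.47 to 1.57 in non-tumor liver (median 1.49) and 1.502 to 1.64 in tumors (median 1.55), with overlap. The highest value, 1.64, came from a tumor of a dHEP mouse on chow.

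**Figure D1:**
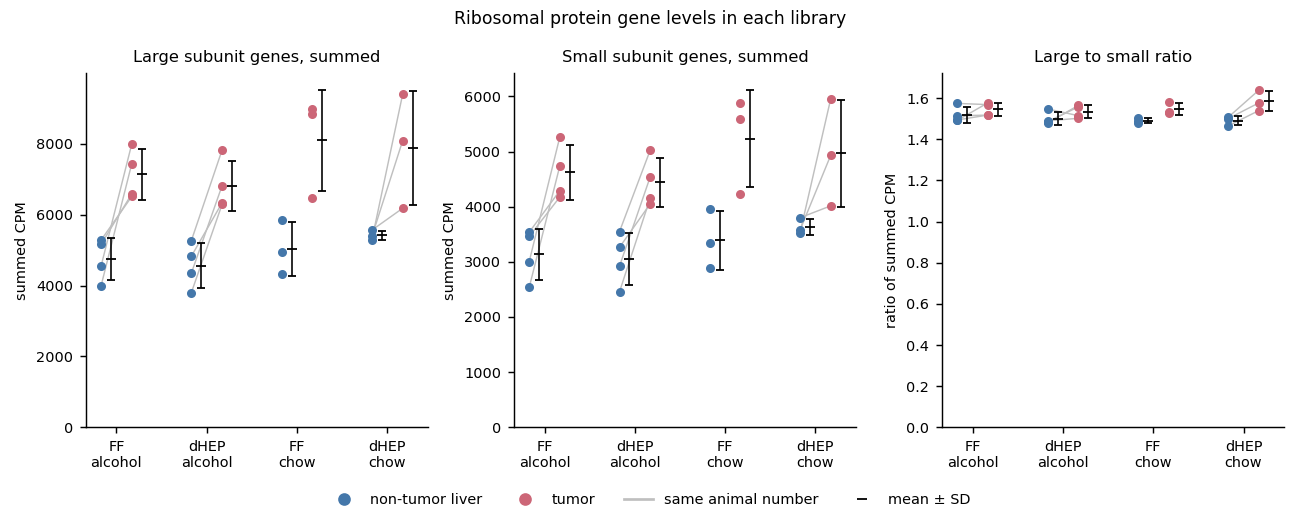
Summed CPM of the 49 large subunit genes (left) and 33 small subunit genes (middle) and their ratio (right) in each of 28 libraries, by genotype and diet. Points are libraries, grey lines join libraries with the same animal number, and bars are mean ± SD; the tumor points lie above the non-tumor points of the same group for both sums, while the ratio stays between 1.47 and 1.64.

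In FF mice on alcohol, 63 of the 82 members (76.8%) rose in tumors and none fell, by limma on log2(CPM + 1) with Benjamini-Hochberg adjustment over all 13503 genes tested. Of all genes tested, 13.9% were called higher and 10.6% lower in that comparison. The risers were 39 of 49 large and 24 of 33 small subunit genes, and the median log2 difference of the members was 0.55 (1.46-fold) against 0.05 for all genes. After scaling each library by its median ratio to the others, 60 members rose, against 14.5% of all genes. Without the non-tumor library FF-503 the count of risers was 33, and without the tumor library FF-523 it was 40. Without the 2 FF non-tumor libraries high in Afp, together with dHEP-549, it was 40, where 13.2% of all genes were called higher. For fits that left out 1 library, here and in the comparisons below, the share of all genes called is not given. A drop in the count may therefore not be particular to the members.

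In FF mice on chow, 58 of 82 members (70.7%) rose and none fell, where 21.2% of all genes were called higher and 9.55% lower. They were 36 large and 22 small subunit genes, with a median log2 difference of 0.66 for the members and 0.16 for all genes. Median-ratio scaling took the median of all genes from 0.16 to 0.01 and that of the members from 0.66 to 0.49. It left 46 members higher, where 17.7% of all genes were called higher. The share of all called genes that were higher went from 69.0% to 53.3% under that scaling. Without the non-tumor library FF-157 the count of risers was 38, and it was 56 without the 3 libraries that stood apart, which belong to other groups but enter the fit, where 20.5% of all genes were called higher.

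In dHEP mice on alcohol, 57 of 82 members (69.5%) rose and none fell, against 12.9% and 7.54% of all genes. They were 35 large and 22 small subunit genes, with a median log2 difference of 0.54 against 0.09 for all genes. With median-ratio scaling 52 members rose, against 11.9% of all genes, and the share of called genes that were higher went from 63.0% to 49.5%. The count of risers was 28 without the non-tumor library dHEP-518, 37 without the non-tumor library dHEP-520 and 36 without the tumor library dHEP-550. Without dHEP-549 and the 2 FF libraries high in Afp it was 51, against 13.8% of all genes.

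In dHEP mice on chow, 34 of 82 members (41.5%) rose and none fell, against 17.2% and 10.7% of all genes. They were 22 large and 12 small subunit genes, with a median log2 difference of 0.48 against 0.14 for all genes. Median-ratio scaling took the median of all genes to 0.02 and that of the members to 0.35, left 20 members higher, against 14.7% of all genes, and moved the share of called genes that were higher from 61.8% to 49.1%. This count depended on the fit. It was 7 when only the 6 libraries of these 2 groups were fitted, where Rplp0, Rplp2, Rpl3, Rpl12, Rpl22l1 and Rpsa lost their calls, and 5 when the animal was a block in that fit, where Rpl22l1 alone of those 6 was called. Without the tumor library dHEP-155 the test called 8 members, of which 7 were higher and 1, Rps4l, was lower (-2.11, limma adjusted p = 0.00245). The count was 53 without the tumor library dHEP-164, 19 without the non-tumor library dHEP-155 and 17 without the non-tumor library dHEP-165. Without the 3 libraries that stood apart, none of them from these groups, it was 28, against 16.8% of all genes. For the fits of 6 libraries and those without 1 library, the shares of all genes called are not given here. Those counts therefore do not show how the members compared with all genes.

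**Figure D2:**
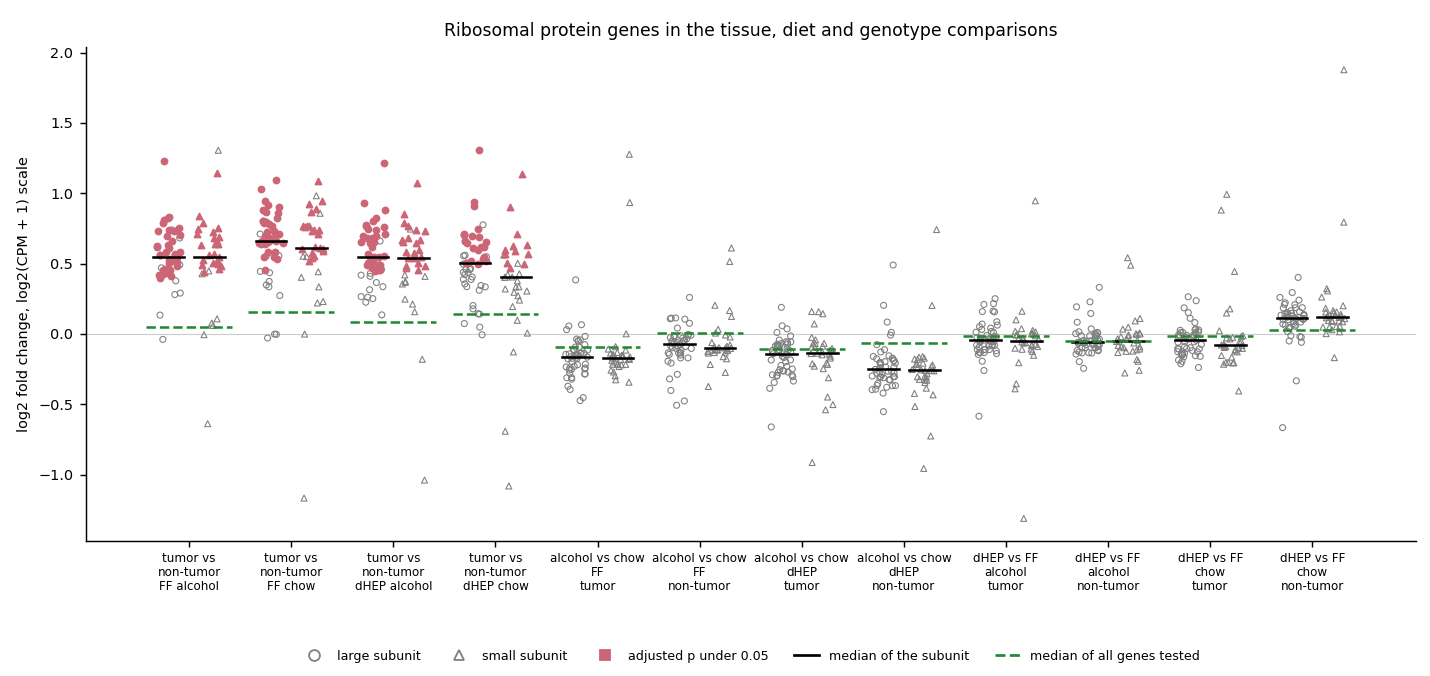
Log2 fold change of each ribosomal protein gene (circles, large subunit; triangles, small subunit) in 12 comparisons, on the log2(CPM + 1) scale; filled symbols have an adjusted p under 0.05 by limma. The 4 tissue comparisons have member medians (black bars) of 0.41 to 0.66 for each subunit, above the medians of all genes (dashed), and the 8 diet and genotype comparisons have no filled symbol.

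The groups compared in the 4 tissue comparisons share no library. Each comparison was fitted on all 28 libraries with a common spread per gene, so the 4 tests are not independent. Across them, 31 members rose in all 4, 18 in 3, 15 in 2, 4 in 1 and 14 in none. Of all 13503 genes tested, 6.71% rose in all 4, 4.98% in 3, 6.07% in 2, 11.3% in 1 and 70.9% in none. The 31 were 20 large and 11 small subunit genes. Of the 82 members, 46 (56.1%; 30 large and 16 small) were higher in the tumor of all 11 animals with both tissues, where 15.2% of all genes were, and none was lower in all 11, where 7.69% of all genes were. In 25 members (30.5%; 15 large and 10 small) every tumor library lay above every non-tumor library, where 1.97% of all genes did so; none had every tumor library below, where 2.01% of all genes did so. Without the 3 libraries that stood apart, 48 members were higher in the tumor of all 8 animals left, where 19% of all genes were, and 26 had every tumor library above every non-tumor one, where 5.78% of all genes did. Of the 13 members with a TOP tract at the annotated start 7 rose in all 4 comparisons and 2 in none, and of the other 47 with a promoter entry 17 rose in all 4 and 9 in none.

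Among the stalk proteins, Rplp0, the scaffold of the stalk, was among the members that rose. In FF mice on alcohol it stood at 263, 328, 362 and 377 CPM in non-tumor liver and at 637, 657, 538 and 529 CPM in the tumors of the same animals. The dHEP mice on alcohol had 255, 292, 326 and 347 CPM against 453, 502, 457 and 558 CPM. On chow it stood at 284, 384 and 338 CPM in FF non-tumor liver and 681, 680 and 485 CPM in FF tumors, and at 343, 380 and 348 CPM against 767, 451 and 574 CPM in dHEP mice. All 14 tumor values lay above all 14 non-tumor values. The log2 differences were 0.83 ± 0.16 (SE; limma adjusted p = 0.000542) and 0.87 ± 0.19 (adjusted p = 0.0013) in FF mice on alcohol and chow, and 0.69 ± 0.16 (adjusted p = 0.00371) and 0.71 ± 0.19 (adjusted p = 0.00648) in dHEP mice. Its call in dHEP mice on chow was lost without the tumor library dHEP-155 (adjusted p = 0.064). Rplp1 and Rplp2 form the dimers bound to Rplp0. Rplp2 rose in all 4 comparisons, by 0.56 to 0.80 on the log2 scale, from a median of 65.3 CPM (44.6 to 78.8) in non-tumor liver to 90.5 CPM (77.4 to 158.6) in tumors. Rplp1 had a median of 229 CPM (194 to 286) in non-tumor liver and 337 CPM (249 to 567) in tumors. It passed the test on alcohol (limma adjusted p = 0.0316 in FF and 0.039 in dHEP) and missed it on chow (adjusted p = 0.0564 and 0.0636), at log2 differences of 0.55 to 0.56 in all 4. Both alcohol calls of Rplp1 held in 2 of 8 fits that each left out 1 library, and both were lost without the 3 libraries that stood apart (at 0.63 and 0.59), as was the call of Rplp2 in FF mice on alcohol (at 0.58). The calls of Rplp2 held in 3 of 8 such fits in FF mice on alcohol and 7 of 8 in dHEP mice on alcohol, and on chow in 6 of 6 in FF and 4 of 6 in dHEP mice.

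Rps12, a small subunit protein, rose in all 4 comparisons and was among the 5 members with the largest rise in each. Its non-tumor values were 58.5, 98.4, 88.1 and 86.7 CPM in FF mice on alcohol, and the tumors of the same animals stood at 202, 205, 165.4 and 158.3 CPM. The values of dHEP mice on alcohol were 47.3, 65.9, 78.2 and 82.6 CPM against 149, 143, 115 and 165.5 CPM. On chow they were 80.9, 104 and 72.8 CPM against 230.1, 186 and 139.8 CPM in FF, and 96.0, 97.3 and 80.2 CPM against 297, 155.2 and 177 CPM in dHEP. No tumor library lay below any non-tumor library. The log2 differences were 1.15 ± 0.21 (SE; limma adjusted p = 0.000316), 1.09 ± 0.24 (adjusted p = 0.00175), 1.07 ± 0.21 (adjusted p = 0.000977) and 1.14 ± 0.24 (adjusted p = 0.00123) in FF alcohol, FF chow, dHEP alcohol and dHEP chow. Near-identical copies of Rps12 hold part of its reads, and with these the summed log2 differences were 1.16, 1.15, 1.10 and 1.19 in the same order. All 4 calls held when any 1 library of the compared groups was left out.

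Rpsa, the laminin receptor and a small subunit protein, and Rpl3, which lies near the site where the peptide bond forms, rose in all 4 comparisons as well. Rpsa had 77.4 to 132 CPM in non-tumor liver (median 105) and 141 to 230.4 CPM in tumors (median 163), without overlap, at log2 differences of 0.60 to 0.89. In dHEP mice on chow its call was lost with median-ratio scaling and in 3 of the 6 fits that each left out 1 library. Rpl3 had 102 to 205 CPM (median 142) and 175 to 344 CPM (median 248), at 0.62 to 0.88, and its call in dHEP mice on chow held in 2 of 6 such fits. Rpl38, which is known for its part in translating Hox mRNAs, went from 56.9 to 81.5 CPM in non-tumor liver to 83.4 to 153 CPM in tumors and rose by 0.52 in FF mice on alcohol, 0.91 in FF mice on chow, 0.93 in dHEP mice on alcohol and 0.94 in dHEP mice on chow. Rpl35 and Rps15a also had no tumor library below a non-tumor one. Rpl35, which held 19.9% of the CPM summed with its near-identical copies, had 13.7 to 20.7 against 23.5 to 40.8 CPM, and Rps15a 48.1 to 78.6 against 87.3 to 151 CPM.

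Other genes were among the 5 largest rises in a single comparison. Rpl17 led in FF mice on chow at 1.09 ± 0.23 (SE; limma adjusted p = 0.00102), and Rpl12 in dHEP mice on chow at 1.31 ± 0.30 (adjusted p = 0.00219). Rps7 reached 0.85 ± 0.27 (adjusted p = 0.0292) in dHEP mice on alcohol, a call that held in 4 of 8 fits that each left out 1 library. Rpl12 and Rps7 held 5.58% and 7.88% of the CPM summed with their near-identical copies, so these rises are uncertain as those of single genes. Rps27a, which is made as a fusion with ubiquitin, reached 0.90 ± 0.27 (adjusted p = 0.0144) in dHEP mice on chow and missed the test in the other 3 comparisons, at 0.06 to 0.55.

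The paralogs differed among themselves. Rpl22l1, whose protein can take the place of Rpl22 in the ribosome, rose in all 4 comparisons. Its non-tumor values in FF mice on alcohol were 9.73, 9.10, 10.7 and 7.15 CPM, and the tumors of the same animals stood at 26.2, 24.9, 20.9 and 19.1 CPM. For dHEP mice on alcohol they were 9.58, 11.4, 9.56 and 13.0 CPM against 24.7, 26.97, 25.8 and 28.4 CPM. On chow they were 12.01, 12.9 and 14.3 CPM against 39.4, 26.9 and 19.9 CPM in FF, and 14.8, 12.6 and 15.8 CPM against 19.5, 27.3 and 40.5 CPM in dHEP. All tumor values lay above all non-tumor values. The log2 difference was 1.23 ± 0.19 (SE; limma adjusted p = 5.7e-05) in FF and 1.22 ± 0.19 (adjusted p = 0.000127) in dHEP mice on alcohol, and 1.03 ± 0.22 (adjusted p = 0.00119) and 0.91 ± 0.22 (adjusted p = 0.00336) on chow. Rpl22 itself had 55.3 to 87.9 CPM in non-tumor liver and 70.9 to 112 CPM in tumors. It differed by 0.20 to 0.38 and passed the test in none of the 4, the lowest limma adjusted p being 0.0752; the difference between the paralogs was not tested. Per kilobase of exon the mean level over the 28 libraries was 9.57 CPM for Rpl22l1 and 29.3 CPM for Rpl22.

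Rpl36al, the paralog of Rpl36a, was called higher in FF mice on alcohol (0.42 ± 0.13, SE, limma adjusted p = 0.0247), FF mice on chow (0.54 ± 0.15, adjusted p = 0.011) and dHEP mice on alcohol (0.47 ± 0.13, adjusted p = 0.0147), and was at 0.14 ± 0.15 (adjusted p = 0.515) in dHEP mice on chow. With median-ratio scaling its 3 calls were lost, at 0.36, 0.37 and 0.38. Leaving out 1 library kept the call in 3 of 8, 5 of 6 and 6 of 8 fits in the same order, and without the 3 libraries that stood apart the call in FF mice on alcohol was lost (at 0.36). Rps27l, a target of p53, and Rpl7l1, a paralog with a part in ribosome assembly, passed the test in no comparison. Rps27l had 58.9 to 82.8 CPM in non-tumor liver (median 75.7) and 56.2 to 103 CPM in tumors (median 79.6), at differences of -0.13 to 0.23. Rpl7l1 had 43.2 to 67.8 CPM (median 51.9) and 49.7 to 71.6 CPM (median 56.4), at -0.04 to 0.26. Rps4l, a copy of Rps4x on chromosome 6 annotated as a pseudogene, had 3.79 to 14.4 CPM in non-tumor liver and 0.399 to 26.2 CPM in tumors and was at 0.08, -1.17, -1.04 and -1.08 in FF alcohol, FF chow, dHEP alcohol and dHEP chow, with limma adjusted p of 0.132 or more. Its partner Rps4x had 144 to 245 CPM in non-tumor liver and 274 to 395 CPM in tumors, without overlap. The paralogs Rpl3l, Rpl10l and Rpl39l, known from muscle and testis, averaged 0.0428 CPM or less.

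**Figure D3:**
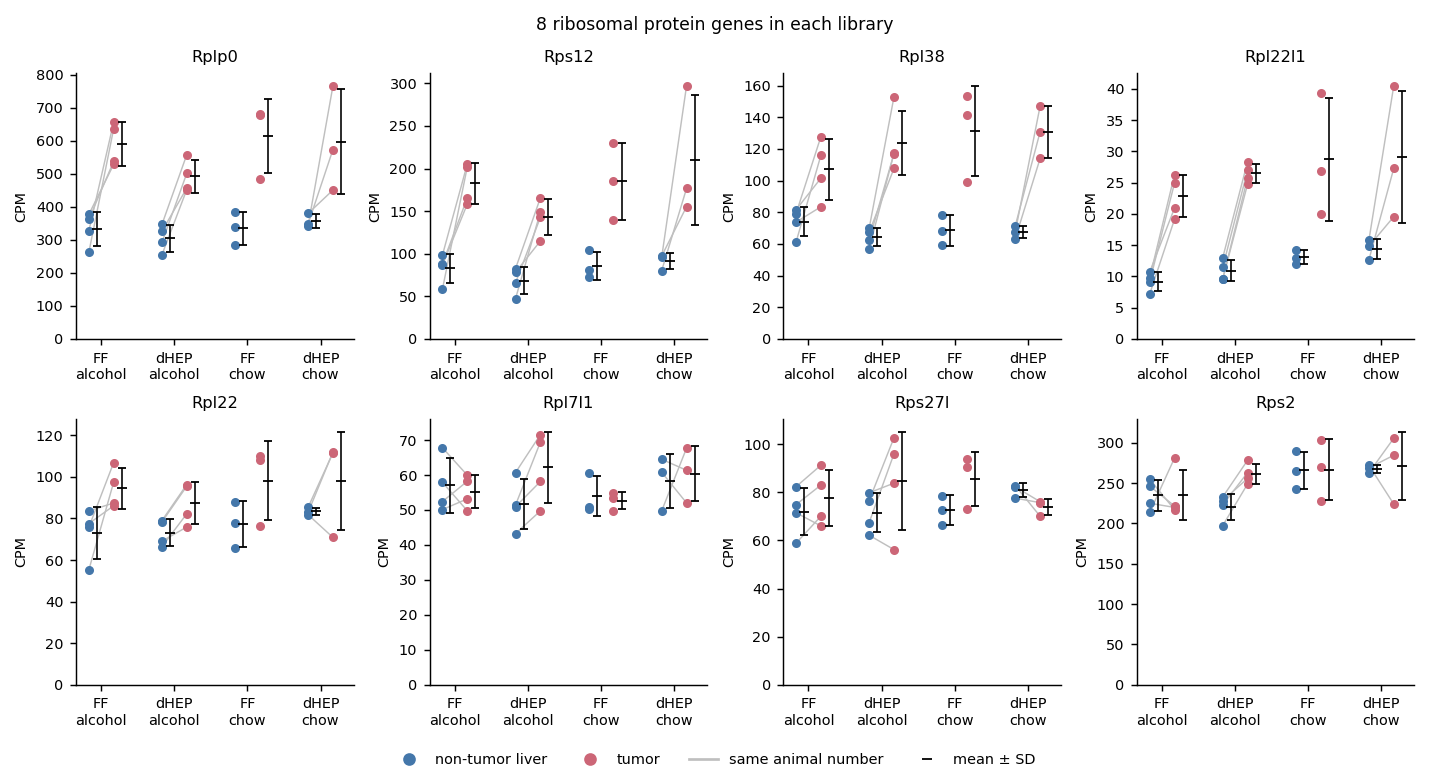
CPM of 8 ribosomal protein genes in each of 28 libraries, by genotype and diet; points are libraries, grey lines join the same animal number, and bars are mean ± SD. Rplp0, Rps12 and Rpl22l1 have all tumor points above all non-tumor points, as has Rpl38, and Rpl22, Rpl7l1, Rps27l and Rps2 overlap.

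The 14 members that passed the test in no tissue comparison were Rpl5, Rpl6l, Rpl7l1, Rpl11, Rpl22, Rpl27, Rpl28, Rps2, Rps3a2, Rps4l, Rps6, Rps13, Rps16 and Rps27l. Rpl5 and Rpl11, the pair that binds Mdm2 together with 5S RNA, were higher in the tumor of 11 and 9 of 11 animals. Rpl5 had 5.73 to 20.1 CPM in non-tumor liver (median 14.001) and 13.3 to 28.2 CPM in tumors (median 20.5), at differences of 0.46 to 0.66, and Rpl11 had 38.9 to 62.9 CPM (median 50.01) and 42.3 to 85.3 CPM (median 60.0), at 0.13 to 0.56. Rps6, the protein phosphorylated by the S6 kinases, was low throughout, at 0.517 to 4.71 CPM in non-tumor liver (median 1.66) and 2.03 to 4.29 CPM in tumors (median 3.38). Near-identical copies of Rps6 are annotated but absent from the table, so whether it lost reads to them cannot be told. Rps2 varied least of all members, with an SD of 0.17 on the log2 scale over the 28 libraries, and had 197 to 289 CPM in non-tumor liver and 217 to 306 CPM in tumors. The next least variable were Rpl7l1, Rps27l, Rpl22 and Rpl27a, with SDs of 0.18 to 0.26. Rps16 varied most, with an SD of 1.41, followed by Rps3a2, Rps4l, Rps12 and Rpl22l1 with 0.64 to 1.07. Rps16 stood at 0.0261 CPM in the non-tumor library FF-157, 2.41 CPM in the tumor library FF-167 and 4.97 CPM in the non-tumor library FF-523, and at 15.3 to 88.0 CPM in the other 25.

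The levels of members are set in part by how reads were shared between near-identical sequences. Mammalian genomes carry many processed copies of ribosomal protein genes, made from their mRNAs. Here 34 of the 82 members had at least 1 other gene in the table with at least 95% identity over at least 80% of the coding sequence (GENCODE vM21 models, GRCm38), and these members are uncertain as single genes. For 13 of them the member held under 90% of the summed CPM. Rps13 averaged 0.483 CPM of a summed 89.2 (0.541%), Rpl12 10.2 of 183 (5.58%), Rpl27a 17.6 of 230.1 (7.64%), Rps7 14.97 of 190 (7.88%) and Rpl27 4.23 of 38.5 (11%). Rpl35 averaged 24.2 CPM of a summed 122, most of it in its copy Gm2000 at 97.2 CPM. Rpl10 held 22.0%, Rpl11 32.5% and Rpsa 33.7% of the sum. Rps27 was at 0 in every library while Rps27rt, its copy without introns on chromosome 9, averaged 128 CPM. Rps6 had 11 such copies in the annotation and none in the table.

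After summing each member with its copies, 65 members rose in FF mice on alcohol, 62 in FF mice on chow, 61 in dHEP mice on alcohol and 37 in dHEP mice on chow, of 80 that remained after Rpl6l and Rps3a2 were summed into other members. Of all genes, 13.9%, 21.2%, 12.9% and 17.3% were called higher in these fits. Rpl35 with its copies passed in all 4, at 0.67, 0.85, 0.72 and 0.77 in that order. Rps13 with its copies stood at a mean of 63.3 to 78.7 CPM in the 4 non-tumor groups and 100.1 to 128 CPM in the tumor groups and passed the test in 3 comparisons, at 0.67 to 0.88, where Rps13 alone passed none. The sum in dHEP mice on chow was at 0.44 (limma adjusted p = 0.0636). Rpl11 with its copies also passed in 3 comparisons, at 0.35 to 0.51, and missed in dHEP mice on chow (0.33, adjusted p = 0.0962). Rpl27a with its copies passed in all 4 at 0.48 to 0.65. Rpl21 went the other way. Alone it rose in FF mice on alcohol (0.46, limma adjusted p = 0.0284) and chow (0.64, adjusted p = 0.00878), and with its copies it was at -0.07 (adjusted p = 0.803) and 0.19 (adjusted p = 0.431).

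**Figure D4:**
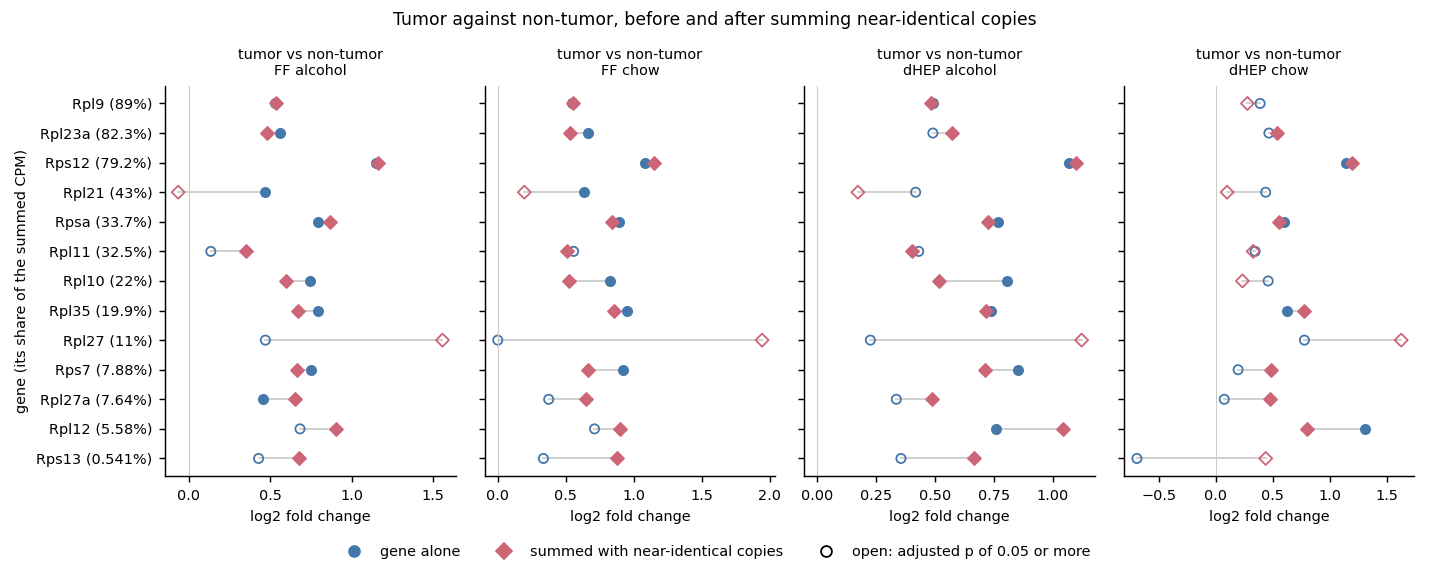
Log2 fold change between tumor and non-tumor liver for the 13 members that hold under 90% of the CPM summed with their near-identical copies (share beside the name), for the gene alone (circles) and the sum (diamonds), with filled symbols for a limma adjusted p under 0.05. Rps13 has filled diamonds in 3 of 4 comparisons and Rpl27a in all 4, and Rpl21 has no filled diamond.

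Other genes of translation were read from lists of related genes. Of all genes tested, 13.9%, 21.2%, 12.9% and 17.2% were called higher in FF alcohol, FF chow, dHEP alcohol and dHEP chow. The shares called lower were 10.6%, 9.55%, 7.54% and 10.7% in that order. Of 12 elongation factors and related genes, 5 rose in FF mice on alcohol, 4 in FF mice on chow, 4 in dHEP mice on alcohol and 6 in dHEP mice on chow, and none fell. Rack1, a protein bound to the small subunit, went from a mean of 226.7 to 418 CPM in FF mice on alcohol, a log2 difference of 0.89 ± 0.16 (SE; limma adjusted p = 0.000285), and rose in all 4, as did Eef1b2, Eef1g and Pabpc4. Eef1b2 and Eef1g are subunits of the factor that reloads eEF1A with GTP. Of 34 initiation factors, 4, 6, 4 and 11 rose in FF alcohol, FF chow, dHEP alcohol and dHEP chow, and 1 (Eif4a2, in FF chow) fell. Eif6, which keeps the subunits apart until the large one is mature, rose in all 4, at 0.72, 0.9999, 0.63 and 0.97.

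Of 50 ribosome assembly genes, 4, 3, 2 and 10 rose in the same order and 1, 0, 0 and 1 fell. The genes that fell were Rrs1 in FF mice on alcohol and Nop10 in dHEP mice on chow. Nop58, a core protein of the snoRNA particles that methylate ribosomal RNA, rose in all 4, by 0.69 to 1.20. Of 19 RNA polymerase I genes tested 3, 1, 2 and 4 rose and none fell. Of 11 chaperones and importers of ribosomal proteins tested, 1, 0, 1 and 1 rose, the riser being the importin Ipo7 in each case, and Heatr3 fell in FF mice on chow. In the same order, the shares of all genes called were 13.9%, 21.2%, 12.9% and 17.2% higher and 10.6%, 9.55%, 7.54% and 10.7% lower.

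Mitochondria have a ribosome of their own. Of its 77 genes, 4, 5, 2 and 3 rose and 6, 5, 2 and 4 fell, with medians of -0.10, -0.02, 0.02 and -0.12. The medians of the cytosolic members were 0.55, 0.66, 0.54 and 0.48 in the same order. Mrpl52 rose in all 4 comparisons. Mrpl49, Mrpl14 and Mrps7 fell in 3 each. In the same order, the shares of all genes called were 13.9%, 21.2%, 12.9% and 17.2% higher and 10.6%, 9.55%, 7.54% and 10.7% lower. Among 19 genes of growth control, 1, 4, 1 and 4 rose and 1, the S6 kinase gene Rps6kb2, fell in FF mice on alcohol. Rictor, a subunit of mTOR complex 2, rose in all 4, by 0.49 to 0.58, and the translation repressor Eif4ebp1 rose on chow (1.14 ± 0.27, SE, limma adjusted p = 0.00269 in FF and 0.84 ± 0.27, adjusted p = 0.0208 in dHEP). On alcohol it was at 0.61 (adjusted p = 0.0583) in FF and 0.41 (adjusted p = 0.229) in dHEP mice, and no gene passed the test of diet by tissue. Among 7 genes of the p53 checkpoint that senses free ribosomal proteins, 0, 4, 1 and 3 rose. This list holds the member Rps27l. Trp53 and its target Zmat3 rose on chow, and Cdkn1a rose in dHEP mice on alcohol (1.63 ± 0.57, SE, limma adjusted p = 0.0454) and chow (1.78 ± 0.66, adjusted p = 0.0477).

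**Figure D5:**
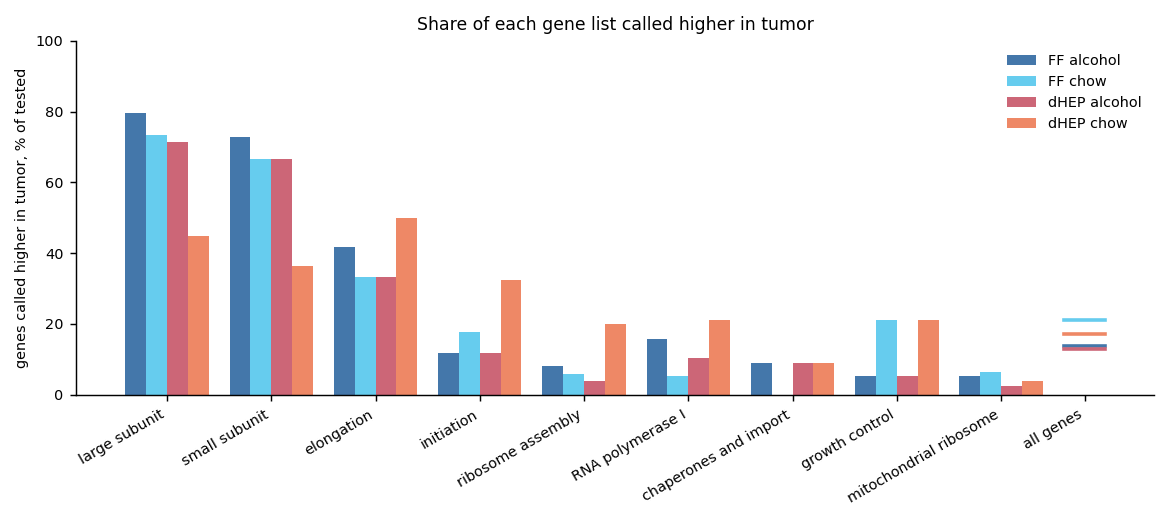
Percentage of the tested genes of each list called higher in tumor by limma at an adjusted p under 0.05, in 4 tissue comparisons (bars), with the percentage over all genes tested at the right (lines). The large subunit bars reach 44.9 to 79.6% and the small subunit bars 36.4 to 72.7%, and all genes lie at 12.9 to 21.2%.

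Some markers of other cells and of growth moved with tissue too, and their part in these results was not tested. The myeloid, endothelial and erythroid sums given below overlapped widely between the tissues. The summed level of 8 hepatocyte markers was 63566 to 107896 CPM in non-tumor liver and 106246 to 208779 CPM in tumors. Much of this sum was albumin alone, at 24253 to 64143 CPM in non-tumor liver and 67798 to 144457 CPM in tumors. The sum of 8 proliferation genes was 35.3 to 101.3 CPM in non-tumor liver and 77.9 to 513 CPM in tumors. The sum of 10 T, B and plasma cell markers was 3.46 to 26.95 CPM and 12.3 to 872 CPM, and that of 7 stellate cell and fibroblast markers 279 to 715 CPM and 227 to 1993 CPM. The sum of 8 myeloid markers was 217 to 600.3 CPM and 108 to 545 CPM, that of 5 biliary markers 22.5 to 103.6 CPM and 7.38 to 3166 CPM, that of 6 endothelial markers 219 to 455 CPM and 191 to 571 CPM, and that of 6 erythroid markers 277 to 966 CPM and 152 to 1278 CPM. No gene of these lists was at 0 in all libraries of a tissue. Most of the biliary sum was Spp1, at group means of 22.0 to 55.2 CPM in non-tumor liver and 116 to 1202 CPM in tumors. Between tissues, Spp1 passed the test in dHEP mice on chow only (4.17 ± 1.10, SE, limma adjusted p = 0.00669). Its values in those 3 tumors were widely spread, with a mean of 1202 CPM and an SD of 1684 CPM. The biliary markers Epcam, Krt7, Krt19 and Sox9 passed it in no tissue comparison. Of the 8 proliferation genes 4, 7, 7 and 7 rose in FF alcohol, FF chow, dHEP alcohol and dHEP chow, and of the 8 hepatocyte markers 3, 2, 3 and 1 rose and 1, 1, 0 and 2 fell. Of 9 tested T, B and plasma cell markers 0, 6, 0 and 1 rose. In the same order, the shares of all genes called were 13.9%, 21.2%, 12.9% and 17.2% higher and 10.6%, 9.55%, 7.54% and 10.7% lower.

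No member passed the test between the diets. In non-tumor liver the 82 members made up 0.626 to 0.882% of all CPM on alcohol (8 libraries, median 0.783%) and 0.721 to 0.980% on chow (6 libraries, median 0.890%), and in tumors 1.04 to 1.33% (median 1.11%) and 1.02 to 1.54% (median 1.37%). The ranges of the diets overlapped in both tissues. By limma, 0 members passed in each of the 4 comparisons of alcohol with chow, where 0%, 0.577%, 0.00757% and 0.656% of all genes were called in FF tumors, FF non-tumor liver, dHEP tumors and dHEP non-tumor liver. The members with an unadjusted p under 0.05 were 1 of 81 in FF tumors, 2 of 80 in FF non-tumor liver, 1 of 81 in dHEP tumors and 15 of 80 in dHEP non-tumor liver, where 5.44%, 14%, 10.9% and 13.1% of all genes had one.

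The 15 members of dHEP non-tumor liver were all lower on alcohol, where 9.37% of all genes were lower with such a p, and the median log2 difference of the members there was -0.26 against -0.07 for all genes. In that comparison 74 of the 80 members had a value below 0. So had 74 of 81 members in FF tumors, 66 of 80 in FF non-tumor liver and 73 of 81 in dHEP tumors. The share of all genes below 0 is not given. In the other 3 the medians were -0.17 (all genes -0.10) in FF tumors, -0.09 (all genes 0.01) in FF non-tumor liver and -0.14 (all genes -0.11) in dHEP tumors. Rpl15, a large subunit protein, had the lowest p in dHEP non-tumor liver, at 20.6, 24.2, 23.6 and 24.2 CPM in the mice given alcohol, and at 34.7, 28.9 and 30.5 CPM in those on chow, a log2 difference of -0.42 ± 0.11 (SE; limma adjusted p = 0.0965). These groups did not overlap. With only the 7 libraries of that comparison fitted, 1 member passed, Rps4l, lower on alcohol at -0.96 (limma adjusted p = 0.0251). Rpl22l1 had the lowest p in FF non-tumor liver, at a mean of 9.17 ± 1.496 CPM (SD, n = 4) in mice given alcohol and of 13.1 ± 1.14 CPM (SD, n = 3) in those on chow (limma adjusted p = 0.172). In tumors the lowest p belonged to Rpl36 in FF mice (-0.47 ± 0.21, SE, adjusted p = 0.892) and Rpl28 in dHEP mice (-0.66 ± 0.26, adjusted p = 0.378).

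No member passed the test between the genotypes. The 7 dHEP and 7 FF libraries had member shares of 0.626 to 0.937% and 0.653 to 0.980% in non-tumor liver and 1.02 to 1.54% and 1.07 to 1.49% in tumors. By limma 0 members passed, where 0% of all genes were called in each of the 4, and 0 of 81 had an unadjusted p under 0.05 in tumors on alcohol, 0 of 80 in non-tumor liver on alcohol, 0 of 81 in tumors on chow and 2 of 80 in non-tumor liver on chow. Of all genes, 6.31%, 8.51%, 2.86% and 4.65% had such a p in that order. The medians of the members were -0.04, -0.05, -0.06 and 0.12 in that order, and those of all genes -0.02, -0.05, -0.01 and 0.03. The lowest p belonged to Rps4l in tumors on alcohol and in non-tumor liver on chow, to Rpl38 in non-tumor liver on alcohol (-0.20 ± 0.11, SE, adjusted p = 0.668) and to Rps28 in tumors on chow (-0.22 ± 0.15, adjusted p = 1).

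The values of Rps4l differed in direction between settings. In tumors on alcohol it stood at 3.81, 5.18, 2.43 and 0.399 CPM in dHEP mice and at 7.76, 8.14, 6.74 and 7.72 CPM in FF mice, without overlap, a log2 difference of -1.31 ± 0.62 (SE; limma adjusted p = 0.788). In non-tumor liver on chow it stood at 14.4, 12.1 and 11.96 CPM in dHEP and 9.30, 9.15 and 3.79 CPM in FF mice, a difference of 0.79 ± 0.30 (adjusted p = 0.988). In tumors on chow it was 26.2, 1.69 and 2.77 CPM in dHEP and 1.46, 4.77 and 2.11 CPM in FF mice.

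Neither interaction held a called member. For diet by tissue 0 of 82 members passed limma's test in FF and in dHEP mice, where 0% of all genes were called in each, and 0 and 2 members had an unadjusted p under 0.05, as had 5.93% and 6.42% of all genes. For genotype by diet 0 of 81 passed in tumors and 0 of 80 in non-tumor liver, again with 0% of all genes called, and 1 and 2 members had an unadjusted p under 0.05, as had 4.95% and 6.88% of all genes. The lowest p belonged to Rpl17 (-0.56 ± 0.30, SE, adjusted p = 0.859) and Rpl15 (0.41 ± 0.19, adjusted p = 0.765) for diet by tissue in FF and dHEP mice, and to Rps4l for genotype by diet in tumors (-2.19 ± 0.95, adjusted p = 0.99) and in non-tumor liver (-0.99 ± 0.40, adjusted p = 0.724).

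Levels differed widely among members when set per kilobase of exon. The length was the union of all annotated exons, so these values depend on the annotated length as well as on the reads. Rps24 averaged 210 CPM, or 33.6 per kilobase, and Rplp1 averaged 291 CPM, or 583 per kilobase. The median over the 82 was 50.2 CPM per kilobase, 48.9 for the large and 53.4 for the small subunit. Rplp1 stood highest at 583, followed by Rps27rt at 342, Rplp0 at 271 and Rps3a1 at 266. The lowest were Rps13 at 0.179, Rpl6l at 0.461, Rps6 at 1.66 and Rpl27 at 2.76. Of these, Rps13 and Rpl27 have near-identical copies in the table that hold most of the summed reads. Rps6 has such copies in the annotation but none in the table, so its level is uncertain too.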

How the data were processed

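The deposited table held CPM values (counts scaled to library depth) per gene that the authors had computed. Per the submitters' processing notes, the tools were RSEM 1.3.0 and STAR 2.5.1a, and the genome build was GRCm38. RNA was described as polyA RNA in one field and the kit as Illumina Stranded Total RNA in another, per the labels. Raw read counts were not used here. From the smallest CPM steps, 80.0 to 82.6% of values were whole reads within 0.1, at an estimated 9572000 to 17820000 reads per library, so no count test was run.

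Values were analysed as log2(CPM + 1) with limma 3.58.1 (trend) in R 4.3.3, on genes with at least 1 CPM in at least 3 fitted libraries. Benjamini-Hochberg adjustment ran over all genes tested, and an adjusted p under 0.05 was called. Tissue and diet by tissue used all 28 libraries, and diet, genotype and genotype by diet used the 14 of 1 tissue. Fold changes on this scale understate the change of low genes. Of the 16 comparisons, 4 were tested on simulated data first. The members and gene lists were chosen with earlier results of these data known. Members named were the 5 called with the largest rise or fall per comparison, the smallest p where none was called, the stalk proteins, Rpsa, Rps6, Rpl3, Rpl5, Rpl11, the paralogs, and the 5 most and least variable. The windows, Rps4x and the members discussed for their copies were added after their values were seen.

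Tumor and non-tumor libraries with the same animal number were taken as 1 animal, and the correlation of their deviations from the group means was -0.107 to 0.356 over 11 animals. P-values measure the spread between these libraries. Near-identical copies were found with BLAST+ 2.17.0 in GENCODE vM21 coding sequences, and levels per kilobase used its exon unions. Alternatives were another pseudocount (0.5), no filter or a mean of 5 CPM, median-ratio scaling, a fit of the 2 compared groups, the animal as a block, and leaving out each library, and, chosen after seeing the data, summed copies and leaving out the 3 libraries that stood apart.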

Additional observations from a re-analysis of the deposited data

Results flagged for a closer look

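In 4 of 136 tests of a value within a group of 4 libraries, 1 library lay far from the others, where chance flags about 1 in 20. Rps2 stood at 281 CPM in the tumor of FF-523 and at 217 to 222 CPM in the other 3 tumors of FF mice on alcohol. Rps6 stood at 2.53 CPM in the tumor of FF-581 and at 3.37 to 3.44 CPM in the other 3. Rplp1 stood at 394 CPM in the tumor of dHEP-550 and at 284 to 297 CPM in the other 3 tumors of dHEP mice on alcohol. The ratio of summed large to small subunit CPM was 1.55 in the non-tumor liver of dHEP-518 and 1.48 to 1.49 in the other 3.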

How the results depend on the processing

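The count of members called between tissues ranged over fits that each left out 1 library from 33 to 62 in FF mice on alcohol, 38 to 65 in FF mice on chow, 28 to 59 in dHEP mice on alcohol and 8 to 53 in dHEP mice on chow. In dHEP mice on chow it was 20 with median-ratio scaling, 7 with only the compared groups fitted and 5 with the replicate block. The block gave 62 and 41 calls in FF and dHEP mice on alcohol, within 1.5 times the counts of 63 and 57. The shares of all genes called are not given for the fits without 1 library, of the compared groups or with the block. In FF mice on alcohol 40 members were called without the 3 libraries that stood apart. Of 188 alternative fits of the diet, genotype and interaction comparisons 1 called a member, with 1 call in dHEP non-tumor liver when only the compared groups were fitted. Among named genes called between tissues, 272 of 294 values outside the leave-one-out fits kept their call, 22 lost it and 0 changed direction, and all 107 medians over members moved by less than the median standard error of a member. The cause of these changes was not tested.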
